A study of Macaca mulatta with 24 samples.

Results

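Interferon-stimulated genes were followed in the whole blood of rhesus macaques (Macaca mulatta, of Chinese origin) before and after 4 Gy total body irradiation. The list holds 49 genes chosen by name from the classical interferon response, and a gene counted as measured where a probe on the array carries its symbol. Of the 49, 44 had at least 1 probe and 43 were bright enough to be tested, out of 10537 named genes tested in all. IFIT2, IFIT5, GBP1, HERC6 and IFI44L had no probe under those symbols and are not analysed here, and LAMP3, a lysosomal membrane protein of activated dendritic cells, was not well above background on any of the 24 arrays. Where a gene had several probes, the one with the highest mean signal stood for it.

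The 24 one-colour arrays came from 7 animals, 4 of them male (animals 1 to 4) and 3 female (animals 5 to 7). The Pre-irradiation group (0 Gy) held 7 arrays, Day 3 held 4 (animals 1, 2, 4 and 7), Day 5 held 6 (all but animal 5) and Day 7 held 7, each animal carrying the same replicate number throughout. None of the 24 arrays came from an unirradiated animal followed over the same days, so in these arrays time in the study and radiation cannot be told apart. The labels give X-rays as the source and the study's methods a cobalt source, and ages are not in the labels.

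Interferons are secreted when a cell detects foreign or misplaced nucleic acid. Type I and type III interferons act through JAK1 and TYK2 on STAT2 and IRF9, and the complex they join binds interferon-stimulated response elements. The genes switched on in this way include sensors that detect more nucleic acid, enzymes that degrade RNA or block its translation, membrane proteins that hinder viral entry or budding, and the ubiquitin-like modifier ISG15. In blood, nearly all leukocytes can express them, and the whole group is often used as a readout of recent interferon exposure. Because RNA was taken from whole blood, more cells of a type and more RNA per cell cannot be told apart in any value given here.

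Between 48.3 and 61.1% of an array's probes were well above background, and 1 array, Day 7 of animal 2, was dim (median processed signal 16.8, against 30.5 to 104 on the others). Leukocyte, platelet and erythroid markers were measured, as the label whole blood implies, although some listed markers had no probe and PAX5, a B cell transcription factor, had one that was not well above background on any array. No listed gene was saturated on any array. The arrays were scanned in 2 sessions: session 2 held all Day 3 and Day 5 arrays but of the Pre-irradiation arrays only that of animal 5, while each animal's Pre-irradiation and Day 7 arrays shared a slide. Against Pre-irradiation, session and day are therefore largely confounded for Day 3 and Day 5, but not for Day 7. Within an animal they are fully confounded for Day 3 and Day 5, because animal 5 had no array on those days. Day 7 arrays were in session 1 except that of animal 5. A fit with the slide as a fixed block sets different animals against each other at Days 3 and 5.

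The probes that the results turn on are 60 bases long, and the first 30 bases are shown 5′ to 3′ as the array design lists them, with the position of the whole probe on rheMac2; the files do not give the strand. The probe of LGALS3BP, which had the largest Day 3 difference among the members' brightest probes, lies at chr16:74231313-74231372. That of DHX58, called at Day 5 with and without the animal as a block, lies at chr16:52208319-52208378. IFI44, with the largest difference among the members' brightest probes at Days 5 and 7, was read at chr1:81484762-81484821. PLSCR1, whose mean was highest at Day 7, was read at chr2:141320748-141320807, and RSAD2, whose mean was lowest at Day 7, at chr13:6966840-6966899. The 3 IFIT1 probes are shown because they disagreed: the brightest spans chr9:88963522-88963643, the second chr9:88962029-88962088 and the third chr9:88963983-88964042.
LGALS3BP: tatcagtccagacagggacctttggtcaaa
DHX58: tactataacgtctccagggatcctgtggtc
IFI44: tagaacattgtagtacttgtgaataactag
PLSCR1: tacctgtgtgaattaagctgtaatgcctgt
RSAD2: tgttccaggtttgttcgtttgacagagtca
IFIT1, brightest probe: actttgagaactctgtgagacaaggtcctt
IFIT1, the second probe: ttagagaaattggctaaaagatgtgttcac
IFIT1, the third probe: attccctcccttgctaactgccattggact
No pair of probes from different members shared a run of more than 11 letters. Whether a probe also matches the transcript of a paralog (among the OAS, MX, SAMD9 and PARP genes) was not tested.

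Levels are log2 of the scanner's processed signal after each array was shifted to a common median, and a level is comparable between arrays but not between genes. Differences are group means on that scale, tested with limma over 27112 probes (27106 for comparisons with Day 3), and a gene is called where its Benjamini-Hochberg adjusted p is under 0.005. Most of the list stood higher after irradiation on average, and few members passed that threshold. At Day 3 the median log2 difference of the 43 members was 1.12 (range −0.63 to 2.46), with 39 above 0, beside a median of −0.00 over all 10534 named genes. Of the members 1, LGALS3BP, rose and 0 fell, while 5.9% of all named genes were called higher and 7.55% lower. At an adjusted p under 0.05, 11 members were higher, or 25.6% of them, beside 16.4% of all named genes.

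At Day 5 the median was 1.46 (range −0.22 to 2.19), with 41 members above 0, and over all named genes it was −0.01. The 8 members that rose were DHX58, EIF2AK2, ADAR, TRIM22, PARP9, SAMD9, SAMD9L and LGALS3BP, and 0 fell. That is 8 of 43, where 6.25% of all named genes were called higher and 9.07% lower. At an adjusted p under 0.05 it was 23 members (53.5%), all of them higher, beside 15.6% of all named genes higher at that threshold.

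At Day 7 the median was 0.43 (range −1.30 to 1.59), with 32 members above 0, and 0 members passed limma's adjusted p of 0.005 in either direction, where 2.7% of all named genes were called higher and 7.16% lower. At an unadjusted p under 0.05 it was 13 members (30.2%), fewer in share than the 38.2% of all named genes. At an adjusted p under 0.05, 6 members were higher (IFI44, PLSCR1, EIF2AK2, DHX58, LGALS3BP and PARP9), beside 11.4% of all named genes, and 4 were lower (RSAD2, IFIT1, ISG20 and BST2), beside 14.9%. Those shares of the members, 14.0% and 9.3%, lay near or below the shares of all named genes.

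**Figure D1:**
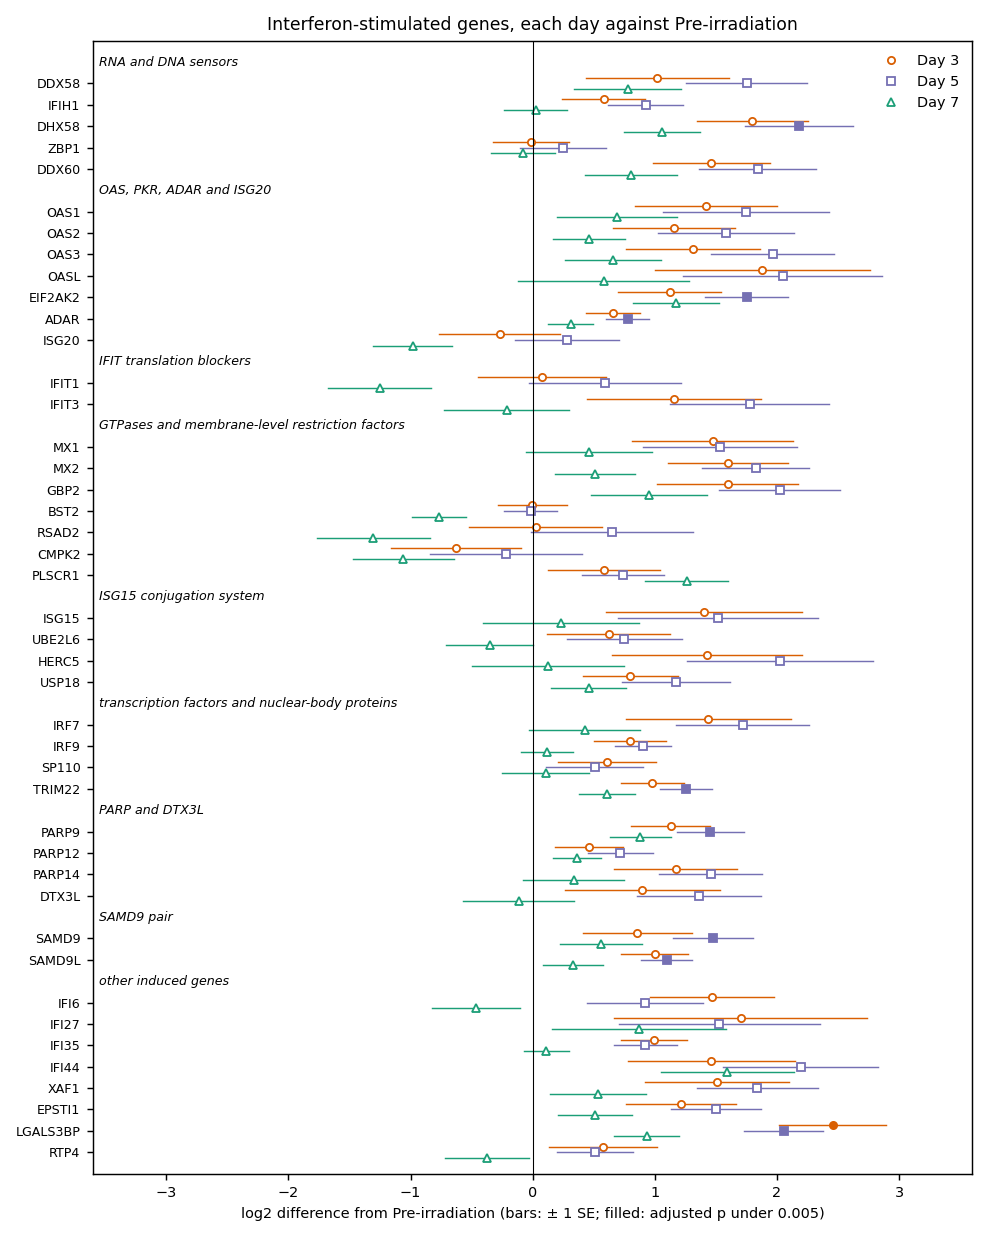
Each of the 43 tested members is a row, grouped by role; the x axis is the log2 difference of Day 3 (circles), Day 5 (squares) and Day 7 (triangles) from Pre-irradiation, bars are ± 1 SE of the 2-group fit (7 Pre-irradiation arrays against 4, 6 and 7) and filled symbols passed an adjusted p of 0.005. At Day 5, 41 of 43 symbols lie right of 0; at Day 7 the triangles lie between −1.30 and 1.59 on both sides of it.

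Numbered replicates are the same animal, so each comparison was also fitted with the animal as a replicate block, and this moved which members were called. At Day 3, 0 members were called with the block (1.48% of all named genes were called higher), LGALS3BP having an adjusted p of 0.00613. At Day 5, 10 were called, or 23.3% beside 5.39% of all named genes called higher, of which DHX58, TRIM22, PARP9 and LGALS3BP were also called without it; DDX60, OAS3, OASL, MX2, IFI44 and XAF1 were added, and EIF2AK2 (0.00565), SAMD9 (0.00689), SAMD9L (0.00901) and ADAR (0.0187) had adjusted p above the threshold. At Day 7 the paired fit called 1 member, DHX58 (log2 difference 1.06, SE 0.20, limma adjusted p 0.00399), where 2.12% of all named genes were called higher. At an adjusted p under 0.05 with the block, 9 members were higher at Day 3 (20.9%, beside 14.4% of all named genes) and 32 at Day 5 (74.4%, beside 17.7%). In every pair behind the Day 3 and Day 5 fits, the Pre-irradiation array was in scan session 1 and the later array in session 2. Day and session cannot be told apart in those paired counts. At Day 7, 9 were higher (20.9%, beside 11.6%) and 5 lower (11.6%, beside 14.9%).

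Among the nucleic acid sensors, DHX58 encodes LGP2, a helicase that tunes the signal of RIG-I and MDA5. Its Pre-irradiation level ran from 7.83 to 9.93 (median 9.06, n = 7). At Day 3 it was 11.52, 9.73, 11.62 and 9.96 in animals 1, 2, 4 and 7, and at Day 5 it ran from 9.48 to 12.26 (median 11.21, n = 6). At Day 3, 3 of 4 arrays and at Day 5, 5 of 6 lay above every Pre-irradiation array, the exception at Day 5 being animal 6. DHX58 rose at Day 5 by 2.18 (SE 0.44, limma adjusted p 0.00199), or 4.53-fold. The Day 3 difference was 1.80 (SE 0.46, adjusted p 0.0105), and Day 7, from 9.40 to 10.62, gave 1.06 (SE 0.31, adjusted p 0.02). Each of the 7 animals was above its own Pre-irradiation array on every day it was sampled, by 0.40 to 2.85.

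DDX58 (RIG-I itself) and DDX60, its helper, differed by 1.75 and 1.84 at Day 5 with adjusted p of 0.0135 and 0.00853, and IFIH1 (MDA5) by 0.92 with 0.0292. ZBP1, which senses Z-form nucleic acid, stood apart: its differences were −0.01, 0.25 and −0.08 on the 3 days. In all, 1 of 5 sensors rose, at Day 5, and the median of the 5 was 1.02, 1.75 and 0.78.

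The enzymes that act on double-stranded RNA held 2 of the Day 5 calls. EIF2AK2 encodes PKR, the kinase that shuts down translation when it binds double-stranded RNA. Its Pre-irradiation level ran from 8.42 to 10.17 (median 9.62), Day 3 gave 11.28, 10.28, 11.12 and 9.43 in animals 1, 2, 4 and 7, and Day 5 ran from 9.95 to 11.74 (median 11.38). Animal 6 was again the 1 of 6 Day 5 arrays inside the Pre-irradiation range. EIF2AK2 rose by 1.75 at Day 5 (SE 0.34, limma adjusted p 0.00149), and Day 7 (9.37 to 11.24, median 10.92) differed by 1.17 (SE 0.35, adjusted p 0.0222), so much of the difference was still there. Further EIF2AK2 probes, whose differences are not given here, correlated with the brightest at r 0.78 and 0.85 over the arrays.

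ADAR edits adenosine to inosine in double-stranded RNA. It was among the steadiest members, from 14.41 to 15.15 before irradiation, 15.78, 15.18, 15.79 and 15.07 at Day 3. Day 5 arrays lay between 15.07 and 15.79, 5 of 6 of them above the Pre-irradiation range, and Day 7 arrays between 14.69 and 15.60. It rose by 0.78 at Day 5 (SE 0.18, limma adjusted p 0.00421), a 1.71-fold change, but 11 of 18 alternatives did not keep that call, with differences from 0.19 to 1.09. At Days 3 and 7 its differences were 0.66 and 0.31. A second ADAR probe, whose differences are not given here, correlated with the brightest at r 0.58 over the arrays.

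OAS1, OAS2 and OAS3 make the oligoadenylates that activate RNase L, and differed by 1.74, 1.58 and 1.96 at Day 5 with 0 of the 3 called. OASL, a catalytically inactive relative that assists RIG-I, had a large difference and a large spread. Before irradiation it ran from 6.87 to 10.24 (median 9.72); Day 3 gave 12.95, 8.63, 11.76 and 9.58 in animals 1, 2, 4 and 7, Day 5 ran from 8.49 to 12.38 and Day 7 from 7.26 to 11.19. Its Day 5 difference of 2.05 (SE 0.81) was 4.13-fold, and the adjusted p was 0.0635. Measured inside each animal the same difference was 1.84 (SE 0.27), above 0 in 6 of 6 animals, and OASL was called with an adjusted p of 0.00177. ISG20, an exonuclease of single-stranded RNA, took another course, with differences of −0.27, 0.28 and −0.98.

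IFIT1 and IFIT3 bind viral RNA ends and block their translation. IFIT3 differed by 1.15, 1.78 and −0.21, IFIT1, by its brightest probe, by 0.08, 0.59 (−0.94 with the slide as a fixed block) and −1.25. The brightest IFIT1 probe ran from 12.96 to 14.14 before irradiation (median 13.96). Day 3 gave 15.67, 12.99, 14.02 and 12.30 in animals 1, 2, 4 and 7, Day 5 ran from 10.95 to 15.79, and Day 7 from 11.06 to 13.91 (median 12.37). At Day 7, 5 of 7 arrays lay below every Pre-irradiation array, and all 7 animals were below their own. The limma adjusted p at Day 7 was 0.0375 (SE 0.42), and 0.00748 with the animal as a block.

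The 3 IFIT1 probes differed in direction. The second probe, which lies on rheMac2 at lower coordinates than the other two, fell on all 3 days, with log2 differences of −4.31 (SE 0.56), −6.62 (SE 1.26) and −4.97 (SE 0.82) and limma adjusted p of 0.000348, 0.00127 and 0.000503. Its Pre-irradiation level was 14.31 to 15.97, Day 3 8.79 to 12.43, Day 5 4.32 to 13.29 and Day 7 6.49 to 13.68, and no array after irradiation reached the Pre-irradiation range. It was well above background on 4 of 6 Day 5 arrays, so the Day 5 size depends on values near background. The third probe, dimmer at 6.63 to 9.19 before irradiation and left out as a flagged spot on some arrays, had differences of 0.57 and −1.08 at Days 5 and 7, in the same directions as the brightest. At Day 3 it was measured in animal 2 alone, at 7.602. Erythroid markers fell over the same days: ALAS2, the first enzyme of red cell heme synthesis, had median levels of 18.56, 14.82, 10.08 and 13.05 from Pre-irradiation to Day 7, and EPB42, a red cell membrane skeleton protein, 13.52, 8.25, 5.11 and 7.73. Whether red cell RNA is what the second IFIT1 probe reads was not tested. Of the 20 further member probes that could be tested, this was the only one whose Day 3 or Day 5 difference was past −1.

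**Figure D2:**
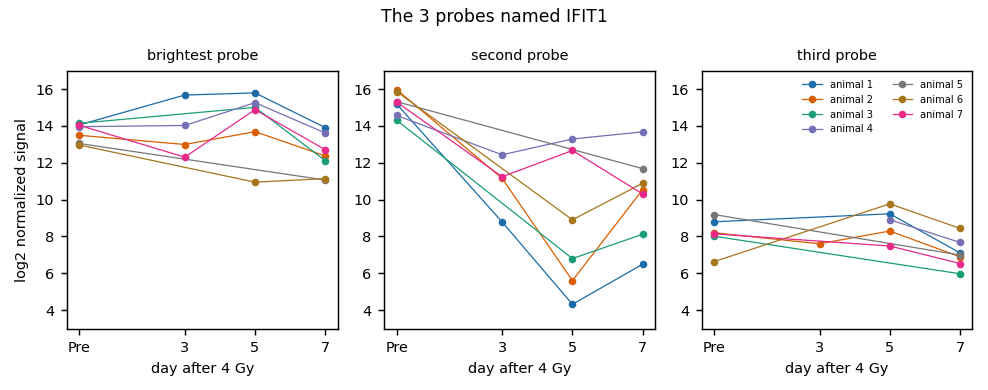
Log2 normalized signal of the brightest, the second and the third probe named IFIT1 on each array against day after 4 Gy; each line is 1 of 7 animals and joins the days that have a value. The second probe lies between 14.31 and 15.97 before irradiation and between 4.32 and 13.68 afterwards, while the brightest lies between 10.95 and 15.79 afterwards.

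The GTPases and membrane-level factors split. MX1 and MX2, dynamin-like GTPases that trap viral nucleocapsids, differed by 1.53 and 1.83 at Day 5 with 0 called (MX2 adjusted p 0.00557), and a second MX2 probe did rise, by 1.90 (limma adjusted p 0.00169), with no overlap between the groups. GBP2, a guanylate-binding protein, differed by 1.60 and 2.02 at Days 3 and 5, and was well above background on 3 of 7 Pre-irradiation arrays and on all later ones. BST2 (tetherin), which holds budding virus at the cell surface, had differences of −0.00, −0.02 and −0.77.

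RSAD2 encodes viperin, which makes a chain-terminating nucleotide, and CMPK2, its neighbour, supplies the precursor. RSAD2 ran from 7.19 to 9.63 before irradiation (median 8.44), was 9.996, 7.64, 8.88 and 7.44 at Day 3 in animals 1, 2, 4 and 7, ran from 6.15 to 10.66 at Day 5, and from 5.53 to 8.66 (median 6.86) at Day 7. At Day 7, 4 of 7 arrays were below every Pre-irradiation array, and the groups overlapped. Its differences were 0.02 (SE 0.55), 0.65 (SE 0.67) and −1.30 (SE 0.46), the last with a limma adjusted p of 0.0472, and with the slide as a fixed block those at Days 3 and 5 were −0.48 and −1.19. CMPK2 had differences of −0.63, −0.22 and −1.06. Animals did not move together: RSAD2 at Day 5 was 3.13 above the animal's own start in animal 1 and 2.22 in animal 4, while animal 6 was at −2.09 and animal 2 at −1.05.

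PLSCR1, a phospholipid scramblase that hinders viral entry, was the 1 of 43 members whose Day 7 mean was above its Day 5 mean. It ran from 9.85 to 11.23 before irradiation (median 10.27), was 12.54, 10.83, 10.74 and 9.52 at Day 3 in animals 1, 2, 4 and 7, ran from 10.22 to 12.58 at Day 5, and from 10.05 to 12.58 (median 11.79) at Day 7. At Day 7, 5 of 7 arrays lay above every Pre-irradiation array. Its differences were 0.58 (SE 0.46), 0.74 (SE 0.33) and 1.26 (SE 0.34, limma adjusted p 0.013 at Day 7), and at Day 7 all 7 animals were above their own start, by 0.17 to 2.36. With the slide as a fixed block the Day 3 and Day 5 differences of PLSCR1 were −0.27 and −1.55. A second PLSCR1 probe gave 0.14, 0.48 and 1.26.

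**Figure D3:**
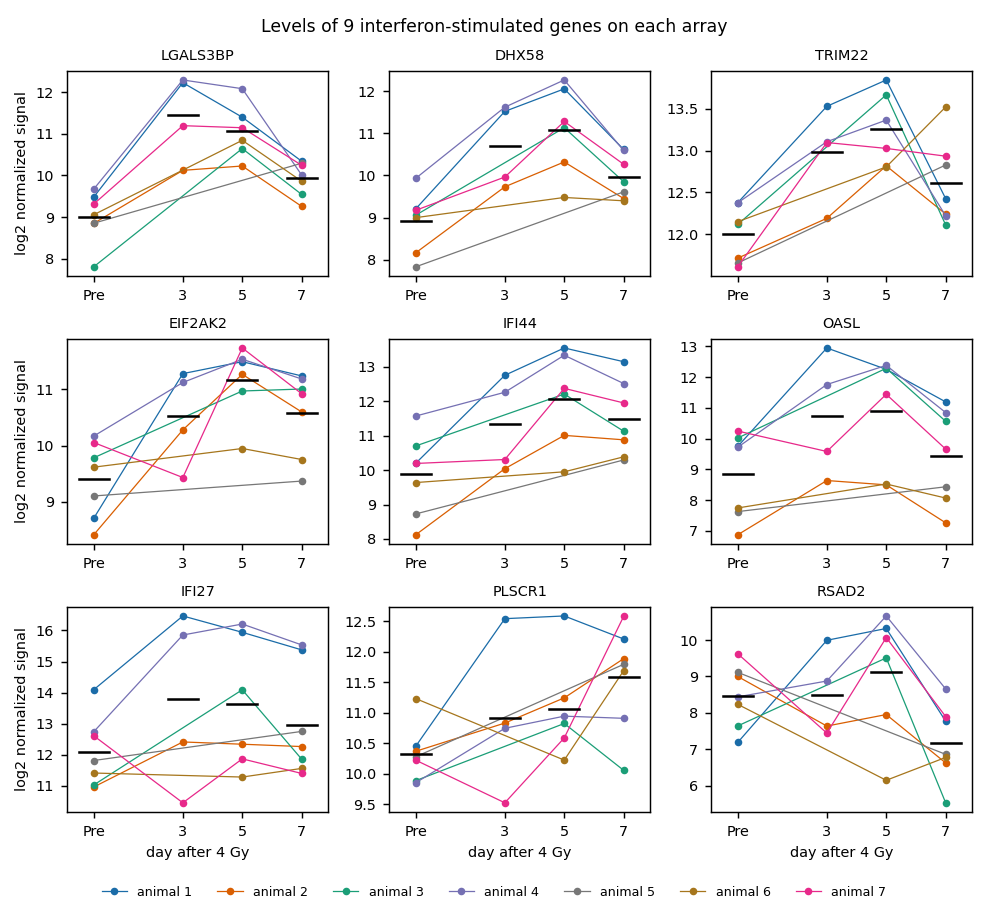
Log2 normalized signal of 9 members on each array against day after 4 Gy; coloured lines are the 7 animals, joining the days each was sampled, and black bars are group means (n = 7, 4, 6 and 7). All LGALS3BP arrays at Days 3 and 5 and all TRIM22 arrays at Day 5 lie above the Pre-irradiation range, and in the other 7 panels the groups overlap on every day. IFI27 of animals 1 and 4 lies between 15.37 and 16.47 on every later day.

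In the ISG15 conjugation system, where UBE2L6 and HERC5 attach ISG15 to proteins and USP18 removes it, 0 of 4 members were called on any day. Their medians were 1.10, 1.34 and 0.18, and their differences at Day 5 were 1.52 for ISG15, 0.75 for UBE2L6, 2.02 for HERC5 and 1.17 for USP18. HERC5 was the most variable member before irradiation, with an SD of 1.39 between the 7 arrays.

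Of 4 transcription factors and nuclear-body proteins, TRIM22, a nuclear restriction factor, rose. Its Pre-irradiation level ran from 11.61 to 12.38 (median 12.12), Day 3 gave 13.53, 12.19, 13.11 and 13.10 in animals 1, 2, 4 and 7, Day 5 ran from 12.81 to 13.84 (median 13.20) and Day 7 from 12.11 to 13.52. All 6 Day 5 arrays were above all 7 Pre-irradiation arrays, and the rise was 1.25 (SE 0.21, limma adjusted p 0.000597). The other 2 TRIM22 probes gave 1.12 and 1.29 at Day 5, both called, and 1 of them was also called at Day 7 (log2 difference 0.997, adjusted p 0.00164), where the brightest had 0.61 (adjusted p 0.0584). IRF7 and IRF9, which relay the interferon signal, differed by 1.72 and 0.90 at Day 5, and SP110 by 0.51 (−1.58 with the slide as a fixed block).

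PARP9 with its partner DTX3L promotes interferon signalling through ADP-ribosylation and ubiquitin transfer. It ran from 8.75 to 9.97 before irradiation (median 9.62), was 11.48, 9.96, 10.85 and 10.20 at Day 3 in animals 1, 2, 4 and 7, ran from 9.85 to 11.44 at Day 5 and from 9.72 to 11.08 at Day 7. It rose by 1.46 at Day 5 (SE 0.28, limma adjusted p 0.00122). All animals were above their own start on every day sampled, animal 6 by only 0.09 at both Day 5 and Day 7. PARP12, PARP14 and DTX3L differed by 0.72, 1.46 and 1.36 at Day 5, and a second PARP14 probe rose by 1.84 (adjusted p 0.00163).

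SAMD9 and SAMD9L, neighbouring antiviral genes that restrain translation and proliferation of blood progenitors, both rose at Day 5. SAMD9 ran from 11.47 to 13.59 before irradiation (median 11.94), was 13.77, 12.25, 13.99 and 12.67 at Day 3 in animals 1, 2, 4 and 7, ran from 13.16 to 14.29 at Day 5 and from 11.89 to 13.53 at Day 7. SAMD9L ran from 13.65 to 14.70, was 15.85, 14.60, 15.50 and 14.91 at Day 3, ran from 14.64 to 15.64 at Day 5 and from 13.51 to 14.98 at Day 7. In each gene, 5 of 6 Day 5 arrays were above every Pre-irradiation array. The rises were 1.47 (SE 0.33, limma adjusted p 0.00331) for SAMD9 and 1.10 (SE 0.21, adjusted p 0.00122) for SAMD9L, and at Day 7 the differences were 0.56 and 0.33. The Day 5 calls were lost under 10 of 18 alternatives for SAMD9 and 7 for SAMD9L.

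LGALS3BP, a secreted glycoprotein that binds galectins, was the only member called on more than 1 day without the animal as a block; with it, DHX58 was (Days 5 and 7), and LGALS3BP was called at Day 5 alone. It ran from 7.80 to 9.67 before irradiation (median 9.05), was 12.23, 10.12, 12.29 and 11.19 at Day 3 in animals 1, 2, 4 and 7, and ran from 10.23 to 12.08 at Day 5 and 9.26 to 10.34 (median 10.01) at Day 7. No Day 3 or Day 5 array overlapped with the Pre-irradiation arrays. It rose by 2.46 at Day 3 (SE 0.44, limma adjusted p 0.0017), or 5.49-fold, and by 2.05 at Day 5 (SE 0.33, adjusted p 0.000337), or 4.15-fold. The Day 7 difference was 0.93 (SE 0.27, adjusted p 0.0183). The Day 3 call was lost when animal 1, 4 or 7 was left out (adjusted p 0.00988, 0.00981 and 0.00712), with differences of 2.28, 2.29 and 2.60.

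IFI44, a cytoplasmic protein of uncertain mechanism, had the largest differences among the members' brightest probes at Days 5 and 7. It was called only in the paired fit of Day 5 (log2 difference 2.002, SE 0.37, limma adjusted p 0.00418). It ran from 8.12 to 11.57 before irradiation (median 10.19), was 12.76, 10.04, 12.26 and 10.31 at Day 3 in animals 1, 2, 4 and 7, ran from 9.95 to 13.55 at Day 5 and from 10.29 to 13.15 at Day 7. The groups overlapped on every day. Its differences were 1.46 (SE 0.68), 2.19 (SE 0.64) and 1.59 (SE 0.55), with limma adjusted p of 0.113, 0.0156 and 0.0415 without the block. IFI35 differed by 0.99 at Day 3, where its 4 arrays did not overlap with the Pre-irradiation arrays (adjusted p 0.0148). XAF1, EPSTI1, IFI6 and RTP4 differed by 1.84, 1.5, 0.92 and 0.51 at Day 5.

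IFI27, a mitochondrial protein, differed widely between animals. Animal 1 went from 14.09 before irradiation to 16.47, 15.94 and 15.37, and animal 4 from 12.74 to 15.85, 16.21 and 15.53. Animal 7 went from 12.61 to 10.45, 11.87 and 11.40, and animal 6 from 11.41 to 11.28 at Day 5 and 11.56 at Day 7. Animal 2 was above its start by 1.45, 1.38 and 1.30 on the 3 days, animal 3 by 3.06 and 0.83 at Days 5 and 7, and animal 5 by 0.94 at Day 7, so that 3 of 4, 4 of 6 and 6 of 7 animals were higher. The group differences of 1.70, 1.53 and 0.87 had SEs of 1.03, 0.82 and 0.71, the Day 5 one being −1.56 with the slide as a fixed block, and IFI27 had the largest SD of the 43 members at Days 3, 5 and 7 (2.85, 2.12 and 1.76).

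That spread was general. The median SD of the members between arrays of 1 group was 0.70 before irradiation and 1.11, 1.05 and 0.79 at Days 3, 5 and 7, where over all 10537 named genes it was 0.35, 0.36, 0.39 and 0.45. All 43 members were more variable than the median named gene at Day 3, and 38 of 43 already were before irradiation. The mean level of the 43 members was 10.84 ± 0.56 (SD, n = 7) before irradiation, 11.84 ± 1.05 (n = 4) at Day 3, 12.11 ± 0.94 (n = 6) at Day 5 and 11.11 ± 0.58 (n = 7) at Day 7.

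**Figure D4:**
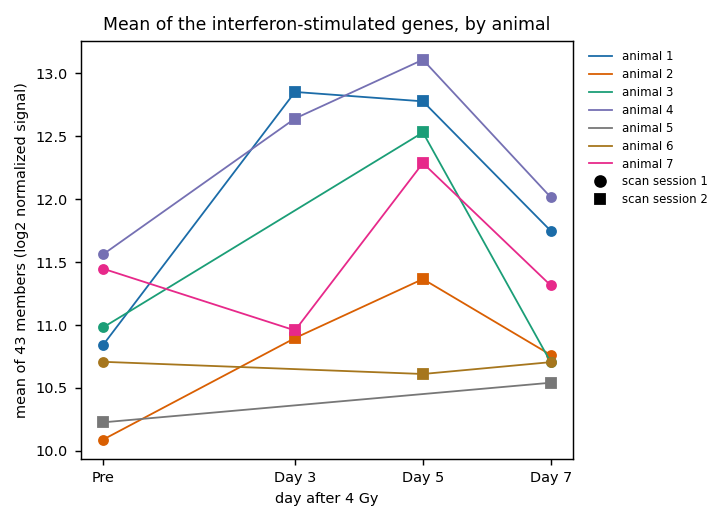
Mean log2 normalized signal of the 43 tested members on each of the 24 arrays against day after 4 Gy; each line is 1 animal, and circles and squares are scan sessions 1 and 2. At Day 5 animals 1, 3, 4 and 7 lie between 12.29 and 13.11, animal 2 at 11.37 and animal 6 at 10.61.

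Animals differed in size and timing. At Day 3, taking each animal against its own Pre-irradiation array, the mean of the members was 2.01 higher in animal 1, 0.81 in animal 2 and 1.08 in animal 4, and it was lower by 0.49 in animal 7. In animal 7 only 12 of 43 members were above their start at Day 3 and 13 were more than 1 below it. At Day 5 the same animal had 37 of 43 above their start and a mean difference of 0.84. In animal 6 members went both ways, with 19 of 43 above at Day 5 (mean difference −0.10, range −2.19 for CMPK2 to 1.79 for LGALS3BP) and 23 of 43 at Day 7 (mean −0.00). At Day 5 animals 1, 2, 3 and 4 had 38 to 43 members above their start, and mean differences of 1.93, 1.27, 1.55 and 1.55. At Day 7 the mean differences ran from −0.28 in animal 3 to 0.90 in animal 1 and were above 0 in 4 of 7 animals.

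Some members were higher in every animal sampled all the same: 12 of 43 at Day 3 (27.9%, beside 25.3% of all named genes), 19 at Day 5 (44.2%, beside 17.3%) and 9 at Day 7 (20.9%, beside 9.23%). The Day 3 share is close to that of all named genes. CMPK2 at Day 3 and IFIT1 at Day 7 were the single members lower in every animal, where 27.8% and 12.6% of all named genes were. DHX58, PARP9, IFI44 and LGALS3BP were among those higher in every animal on all 3 days. Members also tended to deviate together. After subtraction of group means, the correlation of a member with the mean of the other 42 over 24 arrays had a median r of 0.87 (median Spearman rho 0.87), from 0.33 for PLSCR1 and 0.34 for ZBP1 to 0.96 for XAF1. These 24 points share 7 animals and 1 normalization, and the values are given as a description.

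**Figure D5:**
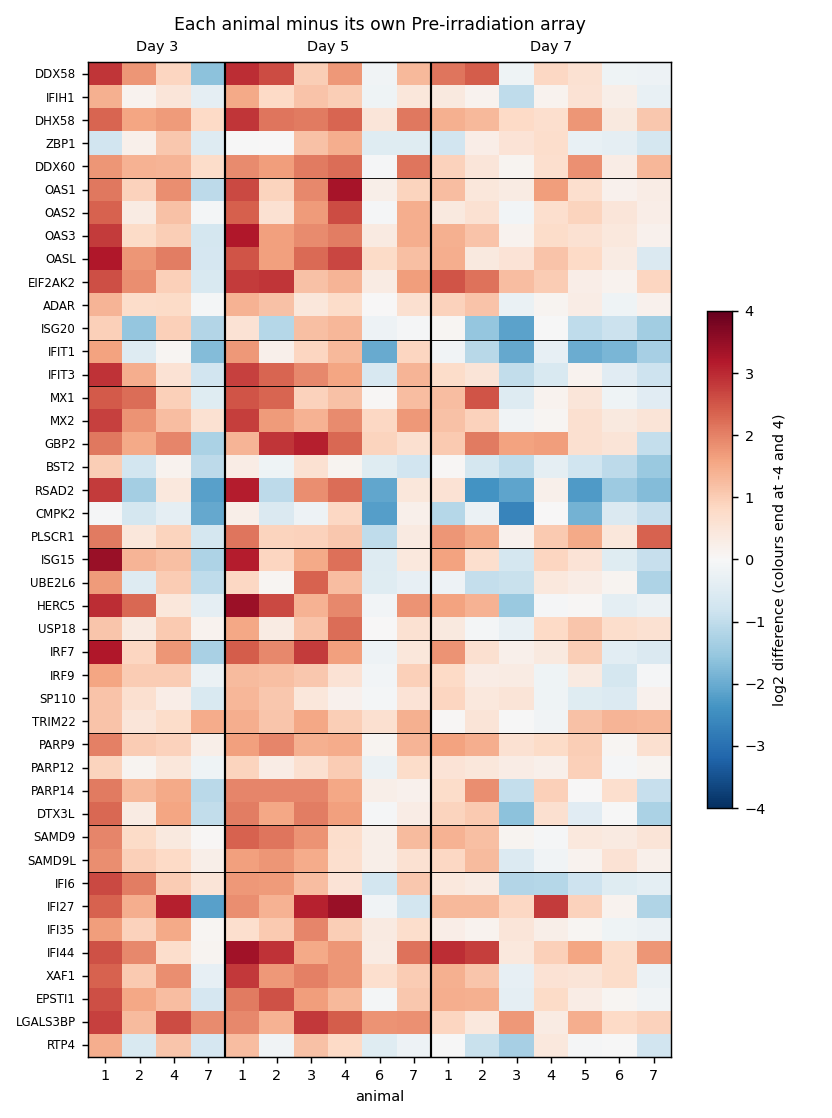
Log2 difference of each tested member (rows, grouped by role with horizontal rules) between an animal's array on Day 3, 5 or 7 and the same animal's Pre-irradiation array (columns, 1 per animal sampled); red is higher, blue lower. The Day 3 column of animal 7 is mostly blue (12 of 43 above 0), and at Day 7 RSAD2, IFIT1, ISG20 and BST2 are blue in most animals.

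Between the days after irradiation 0 members were called. Day 5 against Day 3, where all 10 arrays lie in scan session 2, had a median of 0.29 with 36 of 43 above 0, and 0% of named genes were called higher and 0.038% lower. That median was −0.05 without animal 7 and −0.28 with the slide as a fixed block. The only slide holding both days had Day 3 of animals 1 and 2 and Day 5 of animals 6 and 7. The −0.28 therefore sets different animals against each other. Compared inside each animal, 40 of 43 members were above 0, with a median of 0.51 (all named genes −0.02). By limma 0 members had an unadjusted p under 0.05 without the block, beside 11.1% of all named genes, and 15 (34.9%) had one in the paired fit, beside 17%, with 0 at an adjusted p under 0.05 in either. Day 7 against Day 3 had a median of −0.71 with 3 of 43 above 0, where 0.361% of named genes were called higher and 1.25% lower by limma. At an unadjusted p under 0.05 it was 8 members (18.6%), fewer in share than the 34.2% of all named genes, and 3 were lower at an adjusted p under 0.05 without the block (6.98%, beside 9.46%) and with it (beside 10.6%). IFI6, a mitochondrial survival protein, had the largest of those differences, −1.93 (SE 0.41, adjusted p 0.0117), its Day 3 arrays at 16.40, 14.54, 16.41 and 14.93 all lying above the Day 7 range of 12.82 to 14.26. Day 7 against Day 5 had a median of −1.03 with only PLSCR1 above 0, where 0% of named genes were called higher and 0.00949% lower. At an unadjusted p under 0.05 it was 26 members (60.5%), beside 21% of all named genes, and at an adjusted p under 0.05 it was 2, both lower (4.65%, beside 2.29%). With the animal as a block and an adjusted p under 0.05, 20 members were lower at Day 7 than at Day 5 (46.5%, beside 7.49% of all named genes) and 0 higher. In the paired fits of Day 7 against Day 3 or Day 5, the paired Day 7 arrays were all in session 1. Their Day 3 and Day 5 partners were in session 2, so session and day cannot be told apart there. The 3 comparisons between days share arrays with those against Pre-irradiation.

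The interferons themselves were hardly detected. Of 6 ligand genes with a probe, IFNA2, IFNA8 and IFNB1 were not well above background on any array, IFNL1 was on 2 and IFNW1 on 1. IFNG alone was tested, with differences of −0.07 (SE 0.33), 1.09 (SE 0.33) and 0.90 (SE 0.27) and limma adjusted p of 0.893, 0.0194 and 0.0224. Of the receptors, IFNAR1 differed by 0.14, 0.38 and 0.57, IFNAR2 by 0.83, 0.70 and 0.08, and IFNGR1 by 0.78, 0.74 and 0.44, with 0 of 4 called on any day. IFNLR1 was well above background on 2 of 7 Pre-irradiation, 3 Day 3, 2 Day 5 and 0 Day 7 arrays.

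Of 15 signalling genes, 2 rose at Day 3 (JAK2 by 1.02 and TYK2 by 1.06), 2 at Day 5 (TYK2 by 0.85 and IRF1, a factor also induced by interferon gamma, by 1.17) and 1 at Day 7 (JAK1 by 1.10), and 0 fell. Of all named genes, 5.9%, 6.25% and 2.7% were called higher on these days and 7.55%, 9.07% and 7.16% lower, which are also the shares to set beside the counts of sensing genes. STAT2 differed by 1.16, 0.67 and −0.74, with limma adjusted p of 0.0249, 0.172 and 0.274. Of 15 sensing genes tested, TMEM173 (STING, the adaptor for cytosolic DNA) rose on all 3 days, by 1.33, 1.04 and 1.06. AIM2, a cytosolic DNA sensor, rose by 1.39 at Day 5, and TREX1, a DNase that clears cytosolic DNA, by 0.98 at Day 3. TLR9, the DNA receptor of B cells and plasmacytoid dendritic cells, fell at Days 3 and 7, with differences of −2.0 and −1.80, and had −1.43 at Day 5.

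Among 24 other interferon targets tested, the numbers that rose were 4, 9 and 1 on Days 3, 5 and 7 and 0 fell, where 5.9%, 6.25% and 2.7% of all named genes were called higher. Their medians were 0.77, 0.80 and 0.27. TRIM5, a capsid-binding restriction factor, rose on all 3 days, by 1.74 (SE 0.29), 1.94 (SE 0.21) and 0.97 (SE 0.21), with limma adjusted p of 0.00121, 1.58e-05 and 0.00318. APOBEC3G, a cytidine deaminase, rose by 1.65 and 1.57 at Days 3 and 5, TMEM140 by 1.96 and 2.17, and WARS, a tRNA synthetase induced by interferon gamma, by 2.39 and 2.06. At Day 5 CXCL10, a chemokine for activated T cells, rose by 2.99 (SE 0.66) and CD274, which encodes PD-L1, by 2.71 (SE 0.49), as did TRIM34 by 1.25, SLFN5 by 1.13 and TRIM21 by 1.12. CXCL10 had the largest difference among these targets at Day 3 too, 3.27 (SE 0.72, adjusted p 0.00579).

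Other cell types moved over the same days, and their part in the members' differences was not tested. All 7 B cell markers tested fell on each of the 3 days, the summed marker level going from a range of 14.79 to 15.29 before irradiation to 10.48 to 12.005 afterwards. All 7 erythroid markers fell too, SLC4A1 and CA1 to levels not well above background on any Day 5 array, so no size is given for the list. All 7 platelet markers rose at Day 3 (median 3.06) and 1 at Day 5. Of 7 monocyte markers 2 rose on each day (medians 0.97, 0.88 and 0.93), and of 8 neutrophil markers 2 rose at Days 3 and 5 and 1 fell at Days 5 and 7. Of 6 T cell markers 1 fell at Days 3 and 5, and 0 of 6 NK cell markers passed on any day. Beside these marker counts, 5.9%, 6.25% and 2.7% of all named genes were called higher at Days 3, 5 and 7. The shares called lower were 7.55%, 9.07% and 7.16%. Of 6 plasmacytoid dendritic cell markers only TCF4 and GZMB had a probe, and TCF4, which B cells also express, fell on all 3 days. The monocyte list's summed level, 16.64 to 17.57 before irradiation, was 17.21 to 18.51, 17.21 to 18.39 and 17.004 to 18.24 on the 3 days.

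Scan session and slide bear on the counts at Days 3 and 5. When scan session entered the model of all 4 groups as a block, 0 members were called at Day 3 and 3 at Day 5 (DHX58, EIF2AK2 and PARP9), while the medians were larger, 1.71 and 2.03. With the slide as a fixed block 0 were called on either day, with medians of 1.68 and 1.58. In these fits the sessions are linked through the Pre-irradiation and Day 7 arrays of animal 5, and the member mean of the former, 10.23, was the second lowest of the 7 Pre-irradiation arrays. With the slide block, Day 3 rests on animals 4 and 7 beside animal 5. The Day 5 arrays of animals 1 to 4 add nothing, because their slide held no other group. Day 5 then rests on animals 6 and 7, linked through Day 3 of animals 1 and 2, so slide and animal cannot be told apart. At Day 7, where each animal's arrays shared a slide, the median was 0.43 with either block and 0.36 in session 1 alone, with 0 members called each time.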

How the data were processed

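The 24 one-colour arrays (labels: Agilent whole rhesus genome array; build rheMac2 per the file headers; the study's methods name a human array instead, and the headers were followed) measured globin-depleted RNA of PAXgene whole blood. The deposited scanner intensity values are processed signals from Agilent Feature Extraction, background-corrected per the file headers. The authors' own normalized table holds log2 values that equal the log2 signal plus 1 constant per array, and was an alternative. Here log2 processed signals were shifted to the median array, control and flagged spots were left out, and a probe was tested if 4 or more of the 24 arrays had it well above background (27112 probes) by limma 3.58.1 in R 4.3.3, 2 groups at a time, with Benjamini-Hochberg adjustment over all probes and a threshold of 0.005. The number of arrays limits the precision. Members named in full are those called at any day plus the 3 with the largest difference at each day; IFIT1 and IFI27 were added after their values were seen. Replicate numbers are animals: same-animal deviations correlated by 0.132 to 0.455 in every pair over the 3 comparisons with Pre-irradiation, so a blocked fit is given too. Scan session, slide, normalization, background, filter, probe choice and left-out animals were alternatives. The unblocked comparisons with Pre-irradiation were tested on simulated arrays with independent noise. That simulation held no animal, slide or session effect, and the blocked fits were not tested on it. Members and lists were chosen with earlier results of these data known.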

Additional observations from a re-analysis of the deposited data

Results flagged for a closer look

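In 6 of 172 groups checked (43 members in 4 groups), the highest or lowest array stood farther from its nearest neighbour than Dixon's critical value allows, where chance alone gives about 1 in 20. The Day 5 array of animal 6 was the lowest in 3 of them: PARP9 at 9.85 (next 10.92), SAMD9L at 14.64 (next 15.27) and EPSTI1 at 12.21 (next 14.04). UBE2L6 was highest in animal 4 at Day 7, at 13.39 (next 11.98), SP110 lowest in animal 6 at Day 7, at 10.80 (next 12.32), and PARP12 lowest in animal 5 before irradiation, at 7.68 (next 8.48).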

How the results depend on the processing

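The median difference of the members kept its sign under every alternative for Day 3 (0.75 to 1.71), Day 5 (0.91 to 2.03) and Day 7 (0.33 to 0.57) against Pre-irradiation, for Day 7 against Day 3 (−1.26 to −0.46) and for Day 7 against Day 5 (−1.58 to −0.58). For Day 5 against Day 3 it ran from −0.28 to 0.60, below 0 with the slide as a fixed block and without animal 7 (−0.05). No called difference of a member changed sign, but the fixed slide block turned the sign of 6 uncalled members at Day 3 (BST2, ISG20, PLSCR1, RSAD2, SP110 and ZBP1) and 6 at Day 5 (IFI27 −1.56, IFIT1 −0.94, PLSCR1 −1.55, RSAD2 −1.19, SP110 −1.58 and ZBP1 −0.37). The slide-block values of Days 3 and 5 set different animals against each other, so they do not isolate the slide. The Day 5 calls were lost under 6 of 18 alternatives for DHX58, 5 for EIF2AK2 and PARP9, and 3 for TRIM22 and LGALS3BP. Counts of called members moved more. At Day 3 the count of 1 became 2 with quantile normalization or any probe, 11 at an adjusted p under 0.05, and 0 with normexp, the replicate block, the session block or the fixed slide block. Leaving out 1 animal gave 0 to 1. At Day 5 the count of 8 became 23 at an adjusted p under 0.05, 3 with the session block, and 0 with normexp or the fixed slide block, and leaving out 1 animal gave 2 (without animal 1) to 13 (without animal 6), with 3 without animal 2 or 3 and 5 without animal 7. At Day 7 the count of 0 became 10 at an adjusted p under 0.05, 1 with the replicate block and 2 with any probe, and leaving out 1 animal gave 0 to 1 (PLSCR1, without animal 3). Between days, 3 (Day 7 against Day 3) and 2 (Day 7 against Day 5) members passed at 0.05. The replicate block at an adjusted p under 0.05, chosen after seeing the data, gave 9, 32 and 14 at Days 3, 5 and 7, then 0 for Day 5 against Day 3, 3 for Day 7 against Day 3 and 20 for Day 7 against Day 5. At the threshold of 0.005 the block gave 10 at Day 5 and 0 for the comparisons between days. Normexp called 139, 239 and 317 probes in all against 3656, 4542 and 2954. For the other shifts the cause was not tested. LAMP3 and 3 of the ligands lay at background on every array, which limits what can be said of them.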
